A study of Mus musculus with 6 samples.

Results

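Transcripts of 10 heat shock proteins and chaperones (Hspa1a, Hspa1b, Hspa8, Hspa5, Hsp90aa1, Hsph1, Dnajb1, Hspb1, Hspb7 and Cryab) were followed in the tibialis anterior muscle of mice with and without Prmt7. They were taken by gene symbol from the 14617 genes of the deposited comparison, and all 10 were listed there. Prmt7 encodes a protein arginine methyltransferase. The labels name 3 PRMT7-/- mice (KO) and 3 PRMT7+/+ mice (WT), all C57BL/6 and 8 months old, and RNA was sequenced to compare the muscle transcriptome of KO with that of WT. How the null allele was made, and in which cells Prmt7 is lost, is not stated in the labels.

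Heat shock proteins bind unfolded or partly folded proteins and keep them from aggregating until they are refolded or degraded. Hsp70 proteins do this in cycles of ATP hydrolysis that J-domain proteins start and exchange factors end, Hsp90 acts later on a narrower set of clients, and small heat shock proteins hold unfolded proteins without using ATP. In cells under heat or oxidative stress the transcription factor HSF1 raises many of these genes through heat shock elements in their promoters, and in striated muscle several small heat shock proteins, Cryab among them, are abundant without stress and associate with the sarcomere and desmin filaments.

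The deposited table gives 1 mean normalized read count per genotype. The headers do not say which mean belongs to which genotype. The table's name puts WT before KO, and the columns were read in that order, so every direction given here rests on that reading. The means of both genotypes resolve without remainder into whole counts of 2 libraries each, which are called library 1 and library 2 of their genotype. Which of the 3 labelled mice they came from is not stated. Nothing in the labels ties them to separate animals, so the spread behind the limma p-values is that between libraries and may be technical. The deposited means hold only these 2 libraries per genotype, so the authors' FDRs given with them cannot be taken to rest on 3 mice per genotype. KO libraries 1 and 2 held 24814798 and 22849273 counts over the listed genes, and WT libraries 1 and 2 held 23695468 and 22629288. Prmt7 itself had 706 and 718 normalized counts in KO, against 885 and 844 in WT. Its log2 ratio was -0.28 with an FDR of 0.587 in the authors' deposited table. These counts do not by themselves show the loss of Prmt7 in KO or settle the reading of the columns. They are counts over the whole gene and do not resolve single exons, and the reason for their level was not tested. Xist, the RNA of the inactive X chromosome, had 1.82 and 1.03 normalized counts in KO and 10800 and 11546 in WT, so Xist divides the libraries exactly as genotype does, and what goes with Xist cannot be told apart from what goes with genotype. Markers of skeletal muscle fibres (8 of 8 measured, among them Acta1 and Ckm) summed to 1956876 and 2319261 normalized counts in KO and to 1711652 and 1976814 in WT. KO library 1 stood apart in other cell markers. Its 8 adipocyte markers summed to 24115 normalized counts, against 16436 in KO library 2 and 17585 and 18781 in WT libraries 1 and 2. Fabp4 alone held 16581 and 14225 of these in KO libraries 1 and 2, and 14723 and 15892 in WT. Of the 8, 6 were over 2-fold higher in KO library 1 than in KO library 2. Lipe, at 1091 in KO library 1, was below both WT libraries (1160 and 1119). The 8 Schwann cell markers of KO library 1 summed to 24524, against 11893 in KO library 2 and 8412 and 8845 in WT. All 8 Schwann cell markers were higher in both KO libraries than in both WT libraries, as were 25.8% of all listed genes. None of the 8 was called by the authors' FDR, the lowest being 0.0968.

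Promoter sequences of 7 of the 10 genes were found in RefSeq (GRCm38.p6, which is mm10). The 6 shown are the near-identical stress-induced pair, 3 other genes with a stress motif, and Hspb7, which had a large ratio and no motif. Each line gives the 250 bases before the transcript start, 5′ to 3′ on the strand of the gene. Capitals mark a heat shock element core (GAANNTTC or TTCNNGAA, read on both strands, each being its own reverse complement) or, in Hspa5, the endoplasmic reticulum stress element (CCAAT and CCACG with 9 bases between them, searched on both strands). No match overlapped another.
Hspa1a: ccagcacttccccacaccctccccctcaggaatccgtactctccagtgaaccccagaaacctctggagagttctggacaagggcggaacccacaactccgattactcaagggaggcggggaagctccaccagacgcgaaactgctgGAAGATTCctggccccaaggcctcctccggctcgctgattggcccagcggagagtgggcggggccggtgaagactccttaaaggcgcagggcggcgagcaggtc
Hspa1b: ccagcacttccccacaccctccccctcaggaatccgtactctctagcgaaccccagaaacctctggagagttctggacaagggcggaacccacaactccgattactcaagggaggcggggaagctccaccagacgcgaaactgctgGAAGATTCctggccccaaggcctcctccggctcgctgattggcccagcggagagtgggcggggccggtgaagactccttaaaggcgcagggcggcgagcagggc
Hsph1: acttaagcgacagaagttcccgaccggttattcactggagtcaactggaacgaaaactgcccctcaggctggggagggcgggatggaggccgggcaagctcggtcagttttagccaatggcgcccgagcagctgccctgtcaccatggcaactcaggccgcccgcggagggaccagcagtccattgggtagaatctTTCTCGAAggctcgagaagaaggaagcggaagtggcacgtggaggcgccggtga
Hspb1: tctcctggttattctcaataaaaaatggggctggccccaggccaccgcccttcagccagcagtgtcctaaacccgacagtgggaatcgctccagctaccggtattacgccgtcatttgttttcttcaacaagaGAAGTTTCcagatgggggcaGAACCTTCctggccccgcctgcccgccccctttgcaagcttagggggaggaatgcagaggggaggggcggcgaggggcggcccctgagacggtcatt
Hspb7: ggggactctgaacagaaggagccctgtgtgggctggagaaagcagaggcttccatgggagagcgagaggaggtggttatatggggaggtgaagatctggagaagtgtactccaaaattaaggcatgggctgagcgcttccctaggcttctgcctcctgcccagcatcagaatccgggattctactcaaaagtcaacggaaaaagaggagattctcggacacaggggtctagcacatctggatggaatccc
Hspa5: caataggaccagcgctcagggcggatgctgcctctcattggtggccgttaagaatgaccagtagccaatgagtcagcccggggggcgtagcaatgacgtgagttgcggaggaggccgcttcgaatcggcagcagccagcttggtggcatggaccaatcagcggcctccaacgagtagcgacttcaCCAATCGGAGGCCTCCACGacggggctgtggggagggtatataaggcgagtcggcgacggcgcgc
The windows lie at chr17:34972157-34972406 (minus strand) for Hspa1a, chr17:34959239-34959488 (minus strand) for Hspa1b, chr5:149636316-149636565 (minus strand) for Hsph1, chr5:135887669-135887918 (plus strand) for Hspb1, chr4:141420529-141420778 (plus strand) for Hspb7 and chr2:34771840-34772089 (plus strand) for Hspa5. The Hspa1a and Hspa1b windows differ at 3 of 250 bases, C44T, T47C and T249G, counted from 1 at the 5′ end of the printed window with the Hspa1a base first. Both hold 1 GAANNTTC, 104 to 97 bases before the start. Hspb1 holds GAANNTTC at 117 to 110 and at 97 to 90 bases before the start, and Hsph1 holds TTCNNGAA at 54 to 47. Hspa5 holds the stress element 65 to 47 bases before the start. No motif was found in these windows of Hspb7 and Dnajb1. Of 32851 promoter windows of the same length, 12.8% hold a heat shock element core of either form and 0.113% hold the stress element, so a match is a description of the sequence.

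None of the 10 genes passed the threshold of 0.05 on the adjusted p-value (FDR) of the authors' deposited DESeq comparison, and none had an unadjusted p under 0.05 there. Over all listed genes that comparison called 2.71% at FDR under 0.05, with 1.01% higher in KO and 1.7% lower in KO. The second test, limma on log2(normalized count + 1) of the recovered libraries, also called none of the 10 at an adjusted p under 0.05, where 0.889% of 14053 genes passed, and 1 of the 10 (Cryab) had an unadjusted p under 0.05. Of the 10, 3 were lower in both KO libraries than in both WT libraries (Hsph1, Hspb7 and Cryab) and 2 were higher (Hsp90aa1 and Dnajb1). Over all genes, 25.7% were lower and 25.8% were higher in that way, 51.5% together. The median of the 10 log2 ratios was -0.04, beside 0.01 over all listed genes, and 8 of the 10 lay within 0.25 of 0. The other 2 were Hspb7 and Cryab, both small heat shock proteins of muscle.

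**Figure D1:**
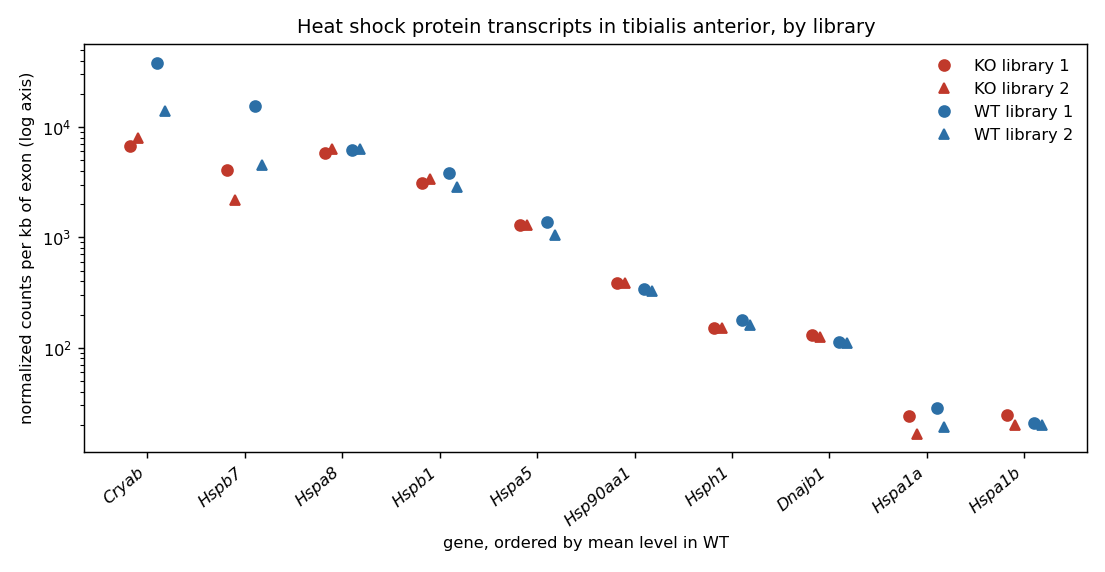
Normalized counts per kilobase of exon (vertical log axis) of each gene in the 2 KO libraries (red, left) and the 2 WT libraries (blue, right), with circles for library 1 and triangles for library 2 and genes ordered by their WT mean. Cryab and Hspb7 have WT libraries far apart and above both KO libraries, and the other genes lie close together.

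Per kilobase of exon, the scale on which genes can be set beside each other, levels spanned a wide range. The length joins all annotated exons of a gene, whether or not each is used in this muscle, so the order of genes is approximate. Cryab had the highest mean in both genotypes, with 6785 and 7917 normalized counts per kilobase in KO and 38400.5 and 13997 in WT. Of the 50-base stretches of Hspa8, 39.4% also stand in other genes, against 13.3% of those of Cryab. How such reads were counted is not given, so the order of Cryab and Hspa8 in KO is uncertain. The share was larger still for Hspa1a (66.3%), Hspa1b (62.3%), Hspb1 (50.1%) and Hsp90aa1 (47.5%), whose places carry the same limit. Hspa8 followed in KO, at 5797 and 6351 per kilobase, and came after Hspb7 in WT, at 6244 and 6299. Hspb7 had 4075 and 2159 per kilobase in KO, a range that holds both KO values of Hspb1 (3079 and 3391), and came next after Cryab in WT, at 15633 and 4483. At the low end, Hspa1a had 23.9 and 16.7 per kilobase in KO and 28.2 and 19.0 in WT, and Hspa1b had 24.6 and 19.9 in KO and 20.6 and 20.1 in WT. In WT the order below Hspb7 was Hspa8, Hspb1, Hspa5, Hsp90aa1, Hsph1, Dnajb1, Hspa1a and Hspa1b. The KO ranges of neighbours in the KO order overlapped for Hspb1 and Hspb7 and for Hspa1b and Hspa1a. The WT ranges of neighbours overlapped for Cryab and Hspb7, for Hspb7 and Hspa8, and for Hspa1a and Hspa1b, and these neighbours are not ordered by 2 libraries. Muscle in bulk was measured, so fewer cells of a type and less RNA per cell cannot be told apart in any of these levels.

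Among the Hsp70 proteins, the stress-induced pair Hspa1a and Hspa1b was scarce in both genotypes. They are neighbours on chromosome 17 (Hspa1a at chr17:34969359-34972156, Hspa1b at chr17:34956429-34959238, both on the minus strand, 10120 bases apart). Hspa1a had 70.8 and 49.5 normalized counts in KO and 83.8 and 56.4 in WT. Hspa1b had 69.0 and 55.7 in KO and 57.8 and 56.4 in WT. The genotypes overlapped for both genes. The Hspa1a log2 ratio was -0.22 in the authors' deposited table (FDR 0.966) and -0.21 ± 0.298 (SE) in limma, with a 95% interval of -0.91 to 0.49. For Hspa1b limma gave 0.12 ± 0.243, with an interval of -0.45 to 0.68. Of the 50-base stretches of Hspa1a transcripts, 58.8% also stand in Hspa1b, so how the authors' counting split reads between the pair, a step the labels do not describe, leaves the separate values uncertain. Immediate early genes, which rise quickly in handled or injured tissue, were measured as a guide to such handling. Of the 14, 2 were called higher (Fos and Myc) and 1 lower (Cyr61) in KO by the authors' FDR, beside 1.01% and 1.7% of all genes. In both KO libraries 6 of them were higher and 2 lower, beside 25.8% and 25.7% of all genes. Fos had 280 and 292 normalized counts in KO and 165 and 156 in WT, and Cyr61 had 854 and 684 in KO and 1225 and 1077 in WT. The sums over the 14, 8090 and 8547 in KO and 8303 and 8036 in WT, do not show these differences. Their part in the Hsp70 values was not tested.

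Hspa8, the constitutive Hsp70 of the cytosol (chr9:40801273-40805199), had 24934 and 27317 normalized counts in KO and 26854 and 27091 in WT. The KO range spans the WT range. Its log2 difference in limma was -0.05 ± 0.153, with a 95% interval of -0.41 to 0.31, and the deposited FDR was 0.982. Hspa8 transcripts share 39.4% of their 50-base stretches with 16 other annotated genes, mostly the predicted gene Gm15459. Hsph1, an Hsp110 protein that exchanges nucleotide on Hsp70 (chr5:149616845-149636315), had 1089 and 1092 normalized counts in KO and 1291 and 1159 in WT. The KO values were the lower ones without overlap, and the KO libraries differed from each other far less than the WT libraries did. The limma difference was -0.17 ± 0.10 with an adjusted p of 0.413, and its interval ran from -0.40 to 0.07. Dnajb1, a J-domain partner that brings substrates to Hsp70 (chr8:83608175-83611903), had 416 and 402 normalized counts in KO and 360 and 356 in WT. Both KO libraries were higher than both WT libraries, with a limma difference of 0.19 ± 0.109 and an adjusted p of 0.384.

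Hsp90aa1, the stress-inducible cytosolic Hsp90, had 1525 and 1519 normalized counts in KO and 1349 and 1288 in WT (chr12:110691036-110696395). Both KO libraries were above both WT libraries. The deposited log2 ratio was 0.21 (FDR 0.747), and limma gave 0.21 ± 0.0934, with an interval of -0.01 to 0.43 and an adjusted p of 0.276. Hsp90aa1 shares 47.5% of its 50-base stretches with other annotated genes, most of them with the predicted gene Gm12346. Its constitutive counterpart Hsp90ab1 had 16229 and 17131 normalized counts in KO and 20908 and 18859 in WT, with a log2 ratio of -0.25 and an FDR of 0.492 in the authors' deposited table. Hspa5, the Hsp70 of the endoplasmic reticulum and a target of the unfolded protein response (chr2:34772090-34776529), had 5433 and 5432 normalized counts in KO and 5846 and 4486 in WT. The 2 KO values lay between the 2 WT values. Its limma difference was 0.09 ± 0.15, with an interval of -0.27 to 0.44.

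**Figure D2:**
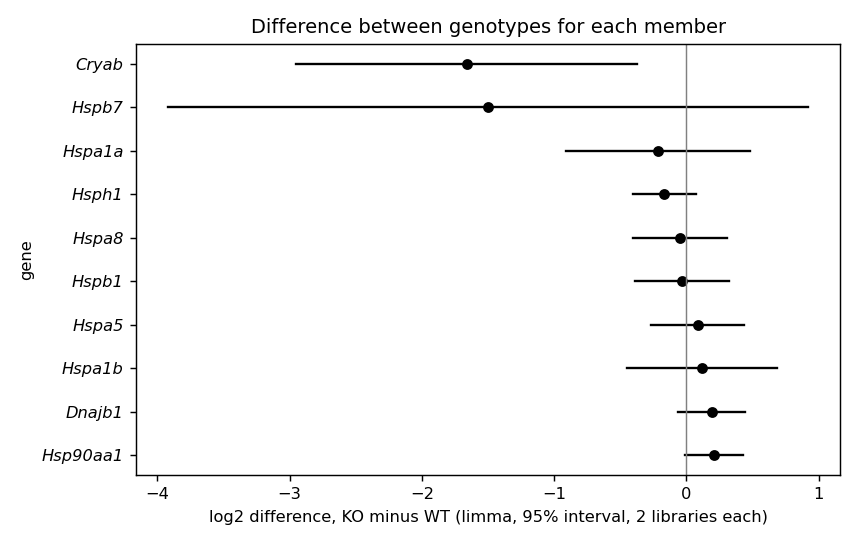
Log2 difference of KO minus WT for each gene, by limma over 2 libraries per genotype (points), with 95% intervals (lines), ordered by the difference. Only the Cryab interval leaves out 0 before adjustment, and Hspb7 has the widest interval, from -3.92 to 0.92.

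The small heat shock proteins divided into Hspb1, near equal in KO and WT, and Hspb7 and Cryab, lower in both KO libraries. Hspb1 (HSP27 in human, chr5:135887919-135889563) had 3174 and 3496 normalized counts in KO and 3919 and 2956 in WT, with overlapping genotypes and a limma difference of -0.03 ± 0.152. Of its 50-base stretches, 50.1% stand in other annotated genes, mostly the pseudogene Hsp25-ps1. Hspb7, a cardiac and skeletal muscle member of the family (chr4:141420779-141425310), had 11283 and 5977 normalized counts in KO and 43289 and 12414 in WT. Cryab, alpha-B crystallin (chr9:50751325-50756635), had 10034 and 11709.7 normalized counts in KO and 56794 and 20701 in WT. For both genes every KO library was below every WT library, and WT library 1 was far above WT library 2.

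The deposited means make Cryab 3.56-fold and Hspb7 3.23-fold lower in KO, with deposited FDRs of 0.588 and 0.770. The limma difference of Cryab was -1.66 ± 0.494 on the log2 scale with an adjusted p of 0.181 and a 95% interval of -2.95 to -0.37. That of Hspb7 was -1.50 ± 0.797 with an adjusted p of 0.422 and an interval of -3.92 to 0.92. The size of the Cryab value rested mainly on the WT libraries, and that of the Hspb7 value on the libraries of both genotypes. Without WT library 1 the Cryab difference was -0.93 and without WT library 2 it was -2.39. For Hspb7 the differences were -0.60 and -2.40 in the same order, and leaving out KO library 2 gave -1.04. A fit that keeps 1 library of a genotype holds no spread within that genotype, so only the size of the difference is given. Without KO library 1, which stood apart in adipocyte and Schwann cell markers, the differences were -1.55 for Cryab and -1.96 for Hspb7. With 2 libraries against 2, an exact permutation test over the libraries cannot go below p = 0.333.

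The gap between the WT libraries was unusual for these genes. Hspb7 was 3.49-fold higher in WT library 1 than in WT library 2, rank 8 of the 12100 genes whose mean reached 50, and Cryab was 2.74-fold higher, rank 22. Over those genes the 5th to 95th percentile of the log2 difference between the WT libraries was -0.34 to 0.43, and 105 genes, 0.868%, differed by more than 1. The KO libraries lay closer, with Hspb7 1.89-fold higher in KO library 1. The other 8 genes had WT libraries within 1.49-fold of each other. Hspb6, another muscle small heat shock protein, named here after its values were seen, had 24681 and 21309 normalized counts in KO and 65599 and 28848 in WT. Of 108 other chaperones measured, Hspb6 alone had a value in WT library 1 over 2-fold that in WT library 2. Below that limit, the J-domain gene Dnaja4, also named after its values were seen, was 1.72-fold higher in WT library 1, rank 146. It had 2536 and 2105 normalized counts in KO and 5164 and 2995 in WT.

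Genes whose 4 library values followed those of Cryab most closely, by Euclidean distance of log2 values after subtracting each gene's WT mean, were Irf5, Myh8 and Dusp18, among 11685 autosomal genes whose mean reached 50. Irf5, an interferon regulatory factor, had 386 and 450 normalized counts in KO and 1920 and 930 in WT, at a distance of 0.292. Myh8, the perinatal myosin heavy chain, had 165 and 114 in KO and 901 and 295 in WT, at 0.635. Dusp18, a dual-specificity phosphatase, had 207 and 132 in KO and 941 and 270 in WT, at 0.665. Hspb7 lay at 0.873 and Hspb6 at 1.10. All 3 nearest genes were lower in both KO libraries and highest in WT library 1, as Cryab was. They were chosen for likeness to Cryab over these same values, so this follows from the choice. These distances are over 4 libraries and describe likeness only.

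Fibre type markers were set beside these values because small heat shock proteins are unevenly spread over fibres. Of 9 fast fibre markers, 1 was called higher (Myh4) and 1 lower (Myh1) in KO by the authors' FDR, beside 1.01% and 1.7% of all genes. Of the 9, 1 (Myh2, the 2A myosin) was over 2-fold higher in WT library 1 than in WT library 2. Myh2, chosen after its values were seen, had 11272 and 7952 normalized counts in KO and 109972 and 31555 in WT. Myh1, the 2X myosin, fell to 117179 and 110754 in KO, against 252508 and 246042 in WT (log2 ratio -1.13, FDR 8.08e-13). Myh4, the 2B myosin, rose to 444884 and 373640 in KO, against 232372 and 277492 in WT (log2 ratio 0.68, FDR 0.0113). The members of the fast list thus went in opposite directions, and their sums, 2281496 and 2544927 in KO and 1943751 and 2227672 in WT, do not show this. Of 9 slow fibre markers, 2 (Myh7 and Myl2) were over 2-fold higher in WT library 1 than in WT library 2. In KO 2 were called lower, Myl3 (log2 ratio -1.01, FDR 1.20e-08) and Casq2 (-0.65, FDR 0.000945), beside 1.7% of all genes. By contrast 6 of the 9 had a log2 ratio above 0, and the median was 0.31. In both KO libraries 4 of the 9 were higher, beside 25.8% of all genes. The slow sums were 13971 and 12253 in KO and 16053 and 14126 in WT. No fibre marker was listed at 0 in a library. Macrophage and leukocyte markers also differed between the WT libraries, with all 10 measured higher in WT library 1, and summed to 14566 and 11480 in KO and to 13733 and 8814 in WT. In KO all 10 were higher in library 1. The part of fibre type or of these leukocyte markers in the Cryab and Hspb7 values was not tested.

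**Figure D3:**
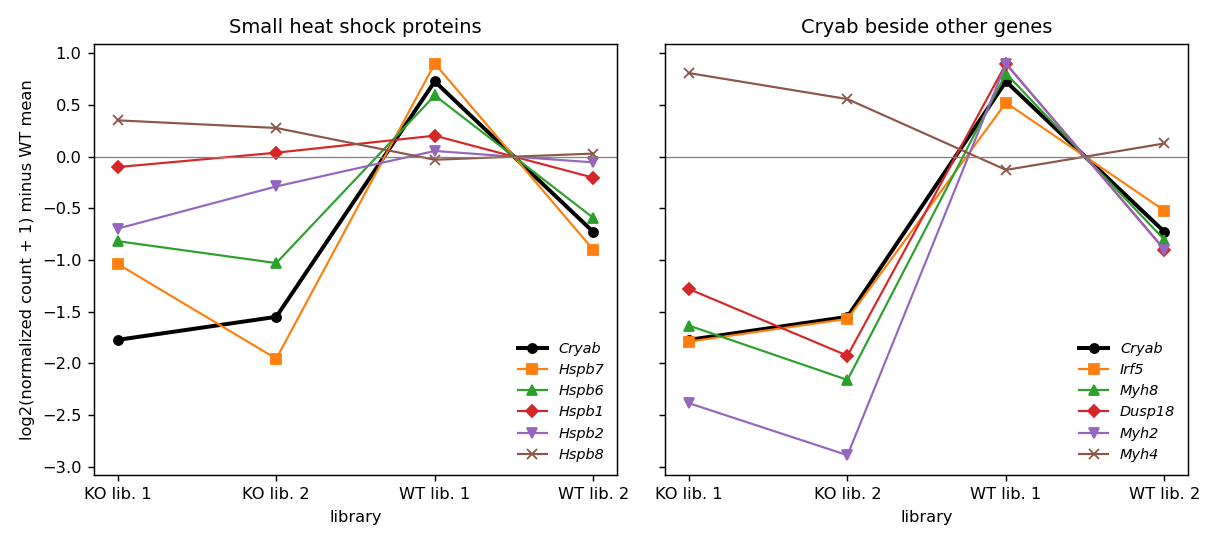
Log2(normalized count + 1) minus each gene's WT mean (vertical axis) in the 4 libraries, KO on the left and WT on the right, with lines only to guide the eye. Left, 6 small heat shock proteins. Right, Cryab beside its 3 nearest genes and the myosins Myh2 and Myh4. Cryab, Hspb7, Hspb6 and the nearest genes, which were chosen for likeness to Cryab, are lower in both KO libraries and high in WT library 1. Hspb8 and Myh4 are above their WT mean in both KO libraries.

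Of 109 other chaperone genes in 7 lists by role, 108 were measured, none was called higher and 3 were called lower in KO by the authors' FDR, Dnajc28, Lonp1 and Fkbp5 (background 1.7% lower). Of the 108, 15 were higher and 42 lower in both KO libraries, beside 25.8% and 25.7% of all genes, and their median log2 ratio was -0.03. In the recovered libraries limma called 1, Dnajc28, beside 0.889% of the 14053 genes tested. Mitochondrial chaperones had the lowest median, -0.36, with 12 of 13 measured lower in both KO libraries and 2 called. Dnajc28, a J-domain protein of mitochondria, had 429 and 437 normalized counts in KO and 725 and 824 in WT, a deposited log2 ratio of -0.84 and an FDR of 0.000651. Leaving out WT library 1 or WT library 2 gave limma differences of -0.93 and -0.74. These fits hold no spread between WT libraries, so they cannot test the call. Lonp1, the mitochondrial Lon protease and chaperone, had 1777 and 1612 in KO and 2447 and 2353 in WT, with a log2 ratio of -0.50 and an FDR of 0.0384. The Hsp60 and Hsp10 genes Hspd1 and Hspe1 had log2 ratios of -0.33 and -0.31 with FDRs of 0.291 and 0.568.

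Among Hsp90 and its cochaperones, 15 of 20 measured were lower in both KO libraries, beside 25.7% of all genes. Of the 20, 1 was called lower, beside 1.7% of all genes, and the median was -0.18. Fkbp5, a peptidyl-prolyl isomerase that binds Hsp90 with steroid receptors, had 295 and 252 normalized counts in KO and 437 and 447 in WT, a log2 ratio of -0.69 and an FDR of 0.0347, and a limma adjusted p of 0.0591. Smyd1 and Unc45b, which assist folding of muscle myosin, had log2 ratios of -0.43 and -0.37 with FDRs of 0.0612 and 0.183. In the 16 cytosolic Hsp70, Hsp110 and exchange factor genes none was called and the median was -0.02. Bag3, the exchange factor that acts with Hspb8 on damaged sarcomere proteins, had 3047 and 2798 normalized counts in KO and 5129 and 4087 in WT. Its log2 ratio was -0.66 with an FDR of 0.0525. That FDR became 0.0446 when adjusted only over genes whose mean reached 50, and 0.0532 without genes on chromosomes X and Y. The limma adjusted p of Bag3 was 0.0731. Hspa12a, a distant Hsp70 relative, had 807 and 689 in KO and 557 and 558 in WT, with an FDR of 0.232.

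The 19 other J-domain proteins had no call and a median of -0.06. Dnaja1, an Hsp70 partner, had 1914 and 2107 normalized counts in KO and 1438 and 1599 in WT, with an FDR of 0.171, and Dnajb2 had 943 and 929 in KO and 1281 and 1156 in WT, with an FDR of 0.266. The 5 other small heat shock proteins had no call and a median of 0.09. Hspb8 had 9124 and 8669 in KO and 7004 and 7300 in WT (FDR 0.307), and Hspb2 had 1385 and 1838 in KO and 2332 and 2160 in WT (FDR 0.153). Hspb2 lies next to Cryab in opposite orientation. The annotated genes overlap by 1030 bases and share 13.3% of the 50-base stretches of Cryab, and the labels do not say whether counting used the strand, so reads of the 2 cannot be told apart there.

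Of 22 endoplasmic reticulum chaperones none was called, with a median of 0.05. In both KO libraries 7 were higher and 2 lower, beside 25.8% and 25.7% of all genes. Ppib and Serpinh1, which fold collagen among other clients, had log2 ratios of 0.41 (FDR 0.147) and 0.33 (FDR 0.279). Fibroblast and matrix markers moved beside them, 8 of 8 with a log2 ratio above 0 and 3 called higher, beside 1.01% of all genes. They summed to 379720 and 298461 in KO and 224197 and 194361 in WT. The part of these markers in the Ppib and Serpinh1 values was not tested. Among 13 of 14 TRiC chaperonin and prefoldin genes measured, which fold actin and tubulin among others, none was called and the median was 0.05. The lowest FDRs were those of Vbp1, a prefoldin subunit, with a log2 ratio of 0.18 (FDR 0.907), and Cct3, a TRiC subunit, with -0.11 (FDR 0.924).

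**Figure D4:**
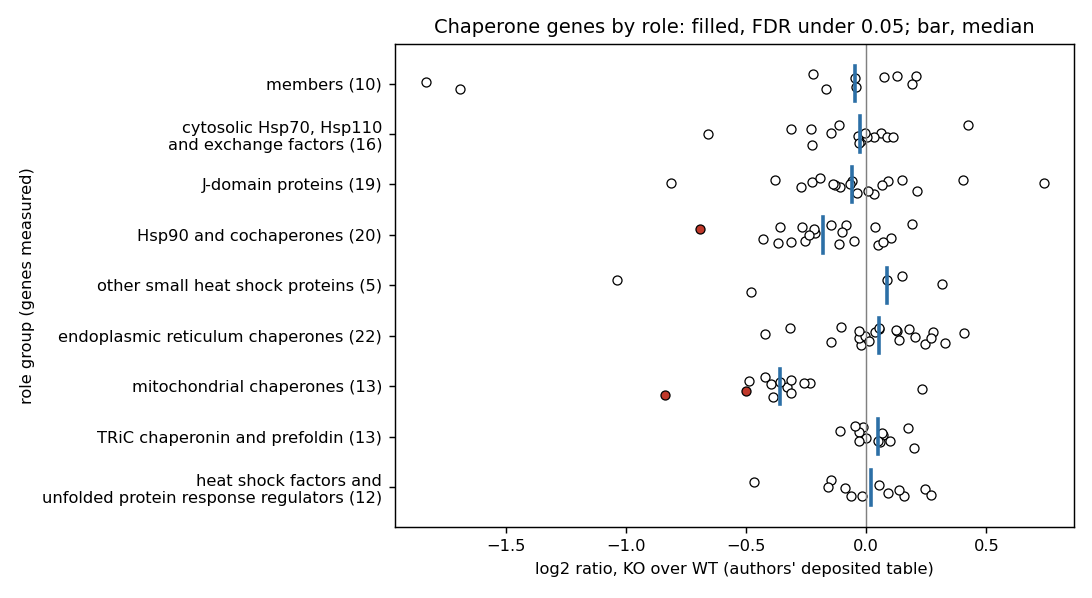
Log2 ratio of KO over WT in the authors' deposited table (horizontal axis) for each measured gene, grouped by role with the number of genes, filled points marking FDR under 0.05 and vertical bars the group median. The 10 genes in the top group spread from -1.83 to 0.21 with no filled point, and the mitochondrial chaperones sit mostly below 0.

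Of 12 heat shock factors and unfolded protein response regulators none was called by the authors' FDR, with a median log2 ratio of 0.02. Hsf1 had 841 and 1024 normalized counts in KO and 929 and 1022 in WT (log2 ratio -0.06, FDR 0.976). Atf4 had 4607 and 4560 in KO and 3715 and 4035 in WT (log2 ratio 0.24, FDR 0.568). Ern1, the IRE1 sensor of the endoplasmic reticulum, had 270 and 175 in KO and 343 and 272 in WT (log2 ratio -0.47, FDR 0.713). Xbp1 had a log2 ratio of -0.02, from a count over the whole gene that does not separate its spliced forms. The upstream regulator table that the authors deposited lists HSF1 among 608 regulators with an activation z-score of 0.096, a p-value of overlap of 0.0135 and 10 target genes, of which 1, CRYAB, is among the 10 genes described.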

How the data were processed

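The authors deposited a gene table whose signal values are mean normalized read counts per genotype, with a log2 ratio of the means, a p-value and an FDR from DESeq, per the file headers and the table's name. The activation z-score of the upstream regulator table was deposited by the authors as a score of the Ingenuity program, for genes whose absolute log ratio passed 0.95, per the file headers. The submitters' processing notes name mm10. Aligner, counter and annotation: not given in the sources used here.

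Every deposited mean was solved for whole counts of 2 libraries, using steps found in the 300 lowest values and a tolerance of 1e-13 of the value, and all 14617 genes had 1 solution. Log2(normalized count + 1) was tested with limma 3.58.1 in R 4.3.3 (trend, robust), for genes with a mean of at least 10, with Benjamini-Hochberg adjustment. The code was also run on simulated counts that gave every gene the same spread setting. That run does not speak for genes whose WT libraries lie as far apart as those of Cryab and Hspb7. Counts per kilobase used the joined length of all exons of a gene in GENCODE M21, and promoters are RefSeq's. The members and lists were chosen with earlier results of these data known. Named were all 10 members, every other chaperone or regulator with an FDR under 0.05, or otherwise the 2 with the lowest FDR in each list, and the 3 autosomal genes nearest to the member with the largest ratio. Genes named after their values were seen are Hspb6, Dnaja4, Smyd1, Unc45b, Hspd1, Hspe1, Hsf1, Xbp1, Hsp90ab1, Myh1, Myh2, Myh4, Myh7, Myl2, Myl3, Casq2, Fos, Myc, Cyr61, Fabp4, Lipe, Xist and Prmt7. Marker lists for endothelial cells, macrophages and red cells were measured. Of 8 endothelial genes 1 was called lower and 6 were lower in both KO libraries, beside 1.7% and 25.7% of all genes. None of 10 and 1 genes in the other 2 lists was called.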

Additional observations from a re-analysis of the deposited data

How the results depend on the processing

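The members stayed uncalled under other pseudocounts, filters, scalings and moderation. Leaving out a single library keeps 1 library in a genotype, so for those fits only log2 differences are given. Of the other chaperones, 3 were called by the authors' FDR and 1 in limma. Leaving out each library, a choice made after seeing the data, gave 0 to 2. Hspa1a, Hspa1b, Hspa5, Hspa8 and Hspb1 changed sign in some settings. Hsp90aa1, Hsph1, Dnajb1, Hspb7 and Cryab kept theirs in all. Scaling by total counts gave Hspa8 0.00205 and Hspb1 0.0184 on the log2 scale, the upper quartile gave Hspb1 0.0119, and totals without the 20 most abundant genes gave Hspa8 0.0626 and Hspb1 0.0790, the last scaling moving the median of all genes to 0.11. Over single libraries left out, the log2 range was -0.49 to 0.0703 for Hspa1a, -0.0355 to 0.27 for Hspa1b, -0.11 to 0.28 for Hspa5, -0.11 to 0.02 for Hspa8 and -0.23 to 0.17 for Hspb1; the cause was not tested. Depth limits Hspa1a and Hspa1b, with 48 to 84 and 53 to 76 counts per library. No paired analysis was possible because the recovered libraries carry no replicate numbers shared between genotypes.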
